A study of Mus musculus with 2 samples.

Results

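The genes described here encode the proteins of the cytosolic ribosome, named Rpl for the large subunit and Rps for the small one, and of the mitochondrial ribosome, named Mrpl and Mrps. Members were all genes of the deposited table whose name begins with one of these stems followed by a digit, and the S6 kinases beginning Rps6k were left out. By this rule 42 of the 4934 genes in the table were members, 26 of them cytosolic and 16 mitochondrial. STAT5 binding was measured by chromatin immunoprecipitation and sequencing (ChIP-seq), in which an antibody recovers DNA bound by the protein. The IL-2 group was 1 library of C57BL/6 OT-I effector CD8 T cells given 0.5 µg/ml IL-2 in culture for 1 hour, and the control group was 1 library of the same kind of cells without IL-2. Cells of both groups carried the transgenic OT-I receptor, had been transferred into mice, were primed there with SIINFEKL peptide and agonists of CD134 and CD137, and were sorted from spleen 4 days later. The labels describe the assay as STAT5A ChIP-seq, and they do not say how many mice gave the cells of a library.

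Cytosolic ribosomes translate messenger RNA from the nucleus, and mitochondrial ribosomes translate the small set of messages encoded in mitochondrial DNA, which give subunits of the respiratory chain. The proteins of both ribosomes are encoded by nuclear genes spread over many chromosomes, and several cytosolic ones host small nucleolar RNAs (snoRNAs) in their introns. STAT5 is phosphorylated downstream of the IL-2 receptor and binds DNA as a dimer, typically at the sequence TTCNNNGAA, in which N is any base. Activated T cells make many ribosomes as they grow.

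The table was a list of genes near called regions, and all 42 members had an IL-2 region and 0 a control region. Each value below is a peak height in signal units. AvgPeak is the mean height of a library over the gene's regions, and Peak Value is the highest peak over both libraries, which the table places in the IL-2 library for all 4934 genes. All 4934 listed genes had an IL-2 region, so the list favours IL-2. Each group was a single library (n = 1), so values carry no replicate error and IL-2 was not tested against control. Read depth is unknown. Among T cell genes fixed as markers, Cd8a (42.25 in the IL-2 library and 6.25 in the control library), Cd8b1, Cd3d, Cd3e and Cd3g all had regions, which describes STAT5 signal and not expression.

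Many regions assigned to ribosomal protein genes lay nearer to the start of another gene, and the sequences that bear on this are shown first. The position of a region was computed from the gene start and the distance in the table. RefSeq promoter windows (GRCm38.p6, the mm10 build) run from 250 bases before to 50 bases after a start, and 8 distinct member regions lay in such a window. The window held TTCNNNGAA for 6 of these regions and not for 2. Only 3 of the 8 were in a window of the ribosomal gene itself, namely Mrpl30, Mrpl48 and Mrpl52. The 250 bases before the start are printed below 5′ to 3′ on the gene's strand, with each TTCNNNGAA in capitals.
The first is that of Mrpl30 (chr1:37890227-37890476, plus strand), which held 2 sites and the highest member region, 116 in the IL-2 library and 5 in the control library.
Mrpl30: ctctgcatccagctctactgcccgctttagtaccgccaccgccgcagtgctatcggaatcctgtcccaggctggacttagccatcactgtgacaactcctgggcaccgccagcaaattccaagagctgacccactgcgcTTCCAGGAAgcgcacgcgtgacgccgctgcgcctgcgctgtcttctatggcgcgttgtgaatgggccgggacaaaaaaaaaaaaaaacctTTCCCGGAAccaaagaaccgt
Icam1, an adhesion molecule, is shown because the region of Mrpl4 (56 and 7 in the IL-2 and control libraries) lay 36 bases before its RefSeq start (chr9:21015690-21015939, plus strand).
Icam1: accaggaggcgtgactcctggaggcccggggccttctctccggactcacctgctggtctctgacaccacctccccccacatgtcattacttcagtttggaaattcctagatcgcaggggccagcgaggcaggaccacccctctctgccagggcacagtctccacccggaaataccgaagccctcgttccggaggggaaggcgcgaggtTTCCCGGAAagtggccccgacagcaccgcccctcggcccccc
Gm12250 is shown for a region of Mrpl22 67 bases before its start (chr11:58183593-58183842, plus strand).
Gm12250: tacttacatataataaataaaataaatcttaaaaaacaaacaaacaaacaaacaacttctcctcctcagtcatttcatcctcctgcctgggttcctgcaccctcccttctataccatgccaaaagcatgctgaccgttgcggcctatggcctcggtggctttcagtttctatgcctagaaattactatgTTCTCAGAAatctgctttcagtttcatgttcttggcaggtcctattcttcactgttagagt
Micos13, named 2410015M20Rik in the table, is shown for the region of Rpl36 (23 and 6), 27 bases after its start (chr17:56609772-56610021, minus strand).
Micos13: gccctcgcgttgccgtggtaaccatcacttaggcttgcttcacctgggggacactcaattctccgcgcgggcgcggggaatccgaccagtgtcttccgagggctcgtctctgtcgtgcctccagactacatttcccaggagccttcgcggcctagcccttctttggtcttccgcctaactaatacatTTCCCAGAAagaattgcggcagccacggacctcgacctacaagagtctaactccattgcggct
Rps3, Rps15 and Mrpl52 are shown as ribosomal genes whose region lay close to their own start, and none of these stretches held TTCNNNGAA. The regions themselves lay 125, 97 and 35 bp inside the genes, past the printed bases, so the letters say nothing of the sequence under them. Rps3 is at chr7:99483710-99483959 on the minus strand, Rps15 at chr10:80292181-80292430 on the plus strand and Mrpl52 at chr14:54426659-54426908 on the plus strand.
Rps3: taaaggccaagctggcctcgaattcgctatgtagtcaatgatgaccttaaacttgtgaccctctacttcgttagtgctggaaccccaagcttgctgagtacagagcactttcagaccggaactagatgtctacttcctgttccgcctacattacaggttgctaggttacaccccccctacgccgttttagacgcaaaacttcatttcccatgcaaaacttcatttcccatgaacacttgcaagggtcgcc
Rps15: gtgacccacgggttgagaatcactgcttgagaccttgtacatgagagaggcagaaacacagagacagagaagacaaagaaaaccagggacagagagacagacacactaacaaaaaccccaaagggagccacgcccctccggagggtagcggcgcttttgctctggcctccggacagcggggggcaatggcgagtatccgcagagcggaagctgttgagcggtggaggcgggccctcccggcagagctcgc
Mrpl52: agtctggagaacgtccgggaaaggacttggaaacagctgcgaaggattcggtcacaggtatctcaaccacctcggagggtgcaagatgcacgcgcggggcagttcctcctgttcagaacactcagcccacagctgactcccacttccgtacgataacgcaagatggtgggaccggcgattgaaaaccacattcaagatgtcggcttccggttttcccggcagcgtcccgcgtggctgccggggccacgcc

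The sites in these windows lay at different distances from the region positions. At Icam1 the site TTCCCGGAA (chromosome 9, 21015898 to 21015906) had its centre 2 bp from the region at 21015904. At Gm12250 the site TTCTCAGAA was 10 bp from the region at 58183776 on chromosome 11. At Ifi35, an interferon-induced gene, TTCACAGAA (101448419 to 101448427 on chromosome 11) was 25 bp from the Rpl27 region at 101448448. These 3 sites lay within 25 bp of the region position, whereas the others were farther. The Nubp2 window held TTCCGAGAA 56 bp from the Mrps34 region, and the Micos13 window held TTCCCAGAA 86 bp from the Rpl36 region. At Mrpl30 the sites TTCCAGGAA and TTCCCGGAA were 130 and 220 bp from the region at 37890240. Region positions were multiples of 16 for 51 of the 53 distinct member regions, so distances of a few bases are not resolved.

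The motif was rare both in promoters of ribosomal genes and in promoters in general. TTCNNNGAA reads the same on both strands and was searched in the whole 300-base window. RefSeq windows were matched for 29 of the 42 members. Of 16 windows of listed cytosolic members 1 held it (6.25%), that of Rpl4, and of 17 windows of listed mitochondrial members 1 (5.88%), that of Mrpl30. Over all promoter windows the share was 8.3% of 32851. Among windows that held a region position of any gene it was 46.2% of 437, and among the rest 7.79%. Of 79 windows of all protein-coding cytosolic ribosomal genes, listed or not, 3 held it (3.8%), and of 75 mitochondrial ones 6 (8%). The narrower TTCCNGGAA, whose matches are all matches of TTCNNNGAA as well, was in 0 of the 16 and 1 of the 17 member windows, against 1.15% of all windows. CCGGAAG, searched on both strands as a core bound by ETS factors, was in 4 of the 16 and 5 of the 17 windows, against 8.86% of all windows. It was in 31.6% of all cytosolic and 34.7% of all mitochondrial ribosomal windows. Over all regions inside a window, the median IL-2 height was 23 where the window held TTCNNNGAA (interquartile range 16 to 42.75, 130 regions) and 15 where it did not (12 to 19, 148 regions). Control medians were 5 and 4.

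Both ribosomes had heights in the IL-2 library close to those of the table as a whole. The mean height of cytosolic members ranged from 11 to 50.5 in the IL-2 library (median 17.25) and from 3 to 8 in the control library (median 4.5). Mitochondrial members ranged from 12 to 116 in the IL-2 library (median 20.25) and from 3 to 8 in the control library (median 5). Within each ribosome every IL-2 height was above every control height. The lowest IL-2 height of any listed gene, 9, was also above the highest member control height, 8, so this is no trait of the members. All members were listed through an IL-2 region and 0 had a control region, which favours such a separation. Over all listed genes heights ranged from 9 to 238 in the IL-2 library and from 0 to 92.5 in the control library. Over all 4934 genes the medians were 20.75 in the IL-2 library and 5 in the control library. The IL-2 height was above the median of all genes for 11 of 26 cytosolic and 8 of 16 mitochondrial members.

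**Figure D1:**
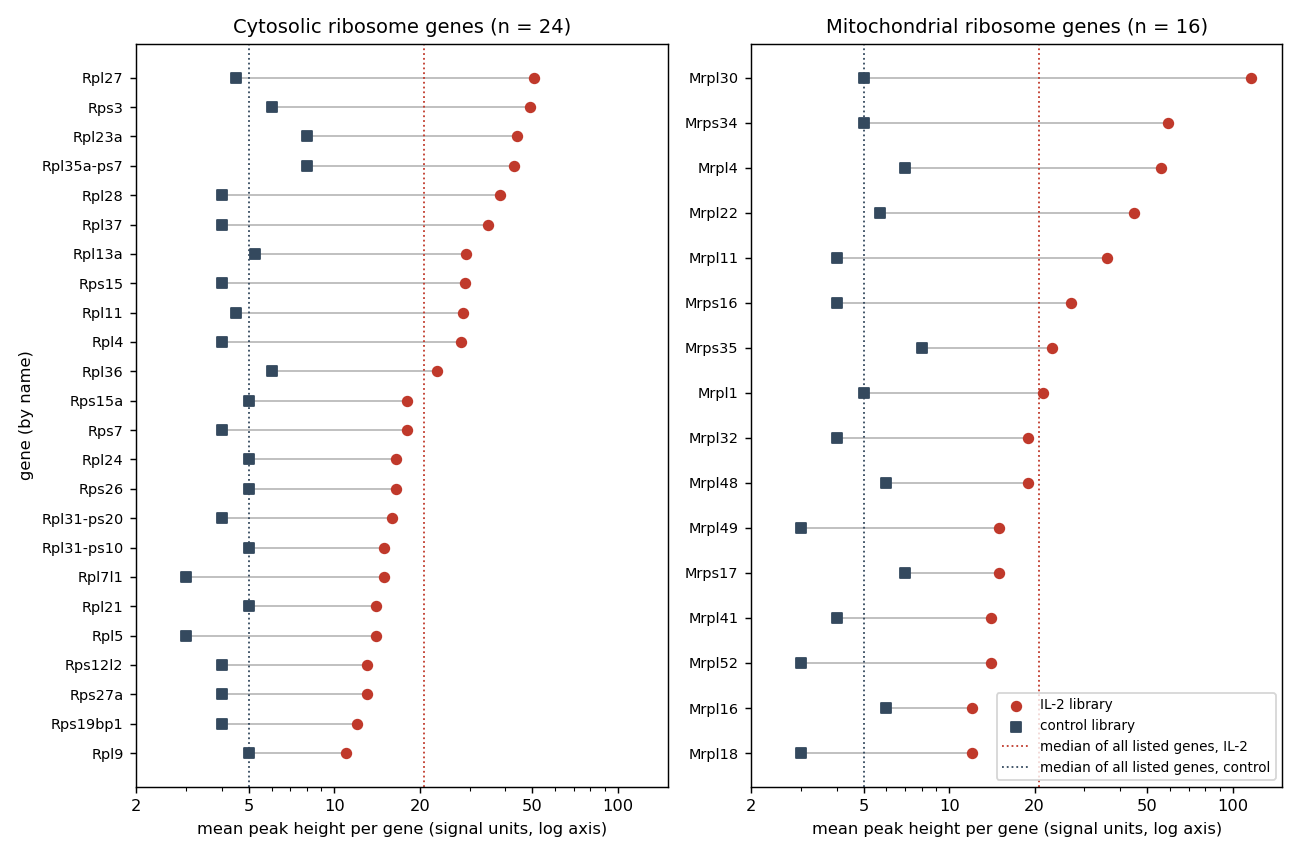
Mean STAT5 peak height per gene (signal units, log axis) in the IL-2 library (circles) and the control library (squares), for 24 of the 26 cytosolic and all 16 mitochondrial ribosome genes ordered by IL-2 height, with the medians of all listed genes as dotted lines. All IL-2 heights shown lie right of all control heights, and all genes shown were listed through an IL-2 region, which favours this. The lowest IL-2 height of all listed genes, 9, would also lie right of the control heights shown. Mrpl30 at 116 stands beyond the next mitochondrial gene, Mrps34 at 59.

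The ratio of IL-2 to control was computed as the IL-2 mean height plus 5 over the control mean height plus 5. It was at least 2 for 21 of 26 cytosolic members (80.8%) and 14 of 16 mitochondrial members (87.5%), against 83.8% of all listed genes, so both shares were near the background. A ratio of at least 4 was found for 4 cytosolic and 5 mitochondrial members, against 23.1% of all listed genes, and a ratio of at most 0.5 for 0 members and 0% of all genes. The median log2 ratio was 1.28 for cytosolic members (0.68 to 2.55), 1.36 for mitochondrial members (0.63 to 3.60) and 1.42 for all listed genes. Any scaling between the libraries is not given in the sources, and the direction depends on it. Setting the medians of the libraries equal over the table shifts the median log2 ratio of all genes by -1.29, and then 13 cytosolic members had a ratio above 1 and 13 a ratio below 1. Of the mitochondrial members 10 were above and 6 below, and of all genes 2898 and 2036.

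Peak Value was also close to that of the table as a whole. For the 18 cytosolic and 14 mitochondrial members with 1 region it equals the IL-2 mean height, so it is no separate measure there. The median Peak Value was 20.5 for cytosolic members (11 to 87), 21 for mitochondrial members (12 to 116) and 23 for all listed genes (9 to 284). Only 3 members reached 74, the 90th percentile of the table, namely Mrpl30 with 116, Rpl27 with 87 and Rpl13a with 75. For all 3 the highest peak lay nearer to the start of another gene, as described below.

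**Figure D2:**
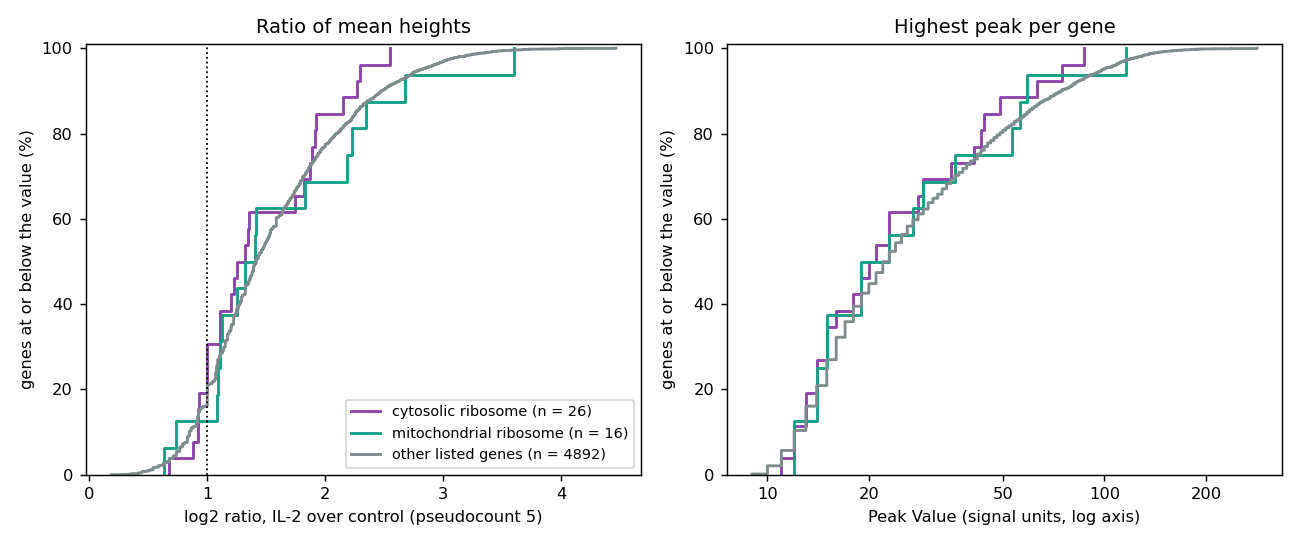
Share of genes at or below a log2 ratio of IL-2 over control (left; the dotted line marks a ratio of 2) and at or below a Peak Value (right, signal units, log axis), for cytosolic members, mitochondrial members and the other 4892 listed genes. The curves run close together, and the medians of Peak Value are 20.5, 21 and 23.

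The families entered the table at shares near that of protein-coding genes in general. Of 87 protein-coding genes with cytosolic names in RefSeq 22 were listed (25.3%, Wilson 95% interval 17.3 to 35.3%), and of 78 with mitochondrial names 16 (20.5%, 13 to 30.8%), against 19.1% of 21900 protein-coding genes. By subunit these were 13 of 53 Rpl, 9 of 34 Rps, 12 of 49 Mrpl and 4 of 29 Mrps genes. The intervals cover counting of genes only. The remaining 4 members, of 26 cytosolic, are RefSeq pseudogenes, of which RefSeq has 309 with such names. They are Rpl35a-ps7, Rpl31-ps20, Rpl31-ps10 and Rps12l2. The region positions of these 4 lay outside the genes, 2548 to 7043 bp from their starts. That of Rpl7l1, a paralogue of Rpl7, lay 368 bp upstream. Which gene these regions belong to is uncertain. Reads from pseudogenes and near-identical copies cannot always be placed, and the effect of this was not tested. Rps19bp1 met the naming rule but encodes a protein that binds Rps19 and regulates the deacetylase Sirt1, and is no ribosomal subunit.

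The distance of a region to the gene start was measured along the gene's strand. Cytosolic members had 37 gene-region pairs and mitochondrial members 19. The region was within 1 kb of the member's start for 15 cytosolic pairs (40.5%, Wilson interval 26.3 to 56.5%) and 9 mitochondrial pairs (47.4%, 27.3 to 68.3%), against 22% of 8350 pairs over the table. The median distance was 2548 bp for cytosolic, 1187 bp for mitochondrial and 7704 bp for all pairs. The part of gene length in this was not tested, and neighbouring genes share regions, so the intervals overstate precision. In position, 14 cytosolic pairs were upstream, 13 in the gene and 10 downstream, and 8, 6 and 5 mitochondrial ones.

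Regions closer to another gene's start were found at both ribosomes, for cytosolic pairs at a share near that of the table. Another listed gene started nearer for 15 of 37 cytosolic pairs (40.5%, Wilson interval 26.3 to 56.5%) and 11 of 19 mitochondrial pairs (57.9%, 36.3 to 76.9%), against 36.3% of all pairs. Member starts here are those in the table, and by RefSeq starts the Mrpl48 region, counted among these pairs, lay nearer to Mrpl48 itself. Some of the nearer starts at cytosolic members were those of snoRNA or miRNA genes. Without such regions, an exclusion chosen after seeing the data, the shares were 33.3% and 57.9%. The 36.3% of all pairs includes such starts. Among 34 distinct cytosolic regions 28 were assigned to more than 1 gene, as were 16 of 19 mitochondrial ones, against 30% of all regions. A region assigned to many genes has more chances to be reached through a member, so the 30% is not a like background. The share over all pairs was not computed. For 7 cytosolic members and 9 mitochondrial members every region lay nearer to another start, which was 26.9% and 56.2% of members, against 31.3% of all listed genes. The share of pairs nearer to another start differed between the ribosomes by less than the width of the Wilson intervals, and no test was run between them.

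The IL-2 height was compared between regions at the member's own start and regions at other starts. Heights of single regions followed from the gene means for 38 of the 53 distinct member regions. Where the member's own start was nearest and within 1 kb, the median IL-2 height was 14 for cytosolic members (11 to 49, 11 regions) and 15 for mitochondrial members (12 to 52, 5 regions). At regions nearer to another listed start it was 39 for cytosolic members (12 to 87, 8 regions) and 19 for mitochondrial members (12 to 116, 9 regions). Over all listed genes these medians were 16 (1086 pairs) and 18 (1897 pairs). These count a shared region once per gene, and the 1897 pairs came from 1185 distinct regions with a determined height, of 2102 of that kind. Control heights were low in each place, with cytosolic medians of 4 and 5 and mitochondrial medians of 6 and 5. The ranges of the places overlap, so the place does not separate high from low regions.

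**Figure D3:**
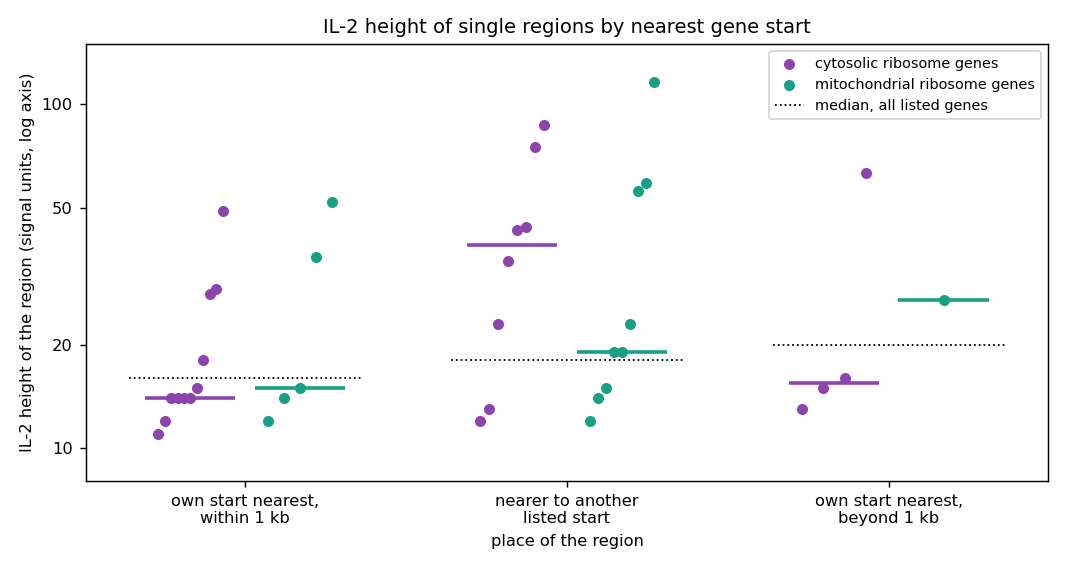
IL-2 height of each single region (points; signal units, log axis) by place, for cytosolic and mitochondrial members, with bars for their medians and dotted lines for the medians over all listed genes. Cytosolic regions nearer to another listed start have a median of 39, against 14 for those at their own start, and the ranges overlap.

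Rpl27 shows the contrast within 1 gene. It encodes a protein of the large cytosolic subunit (gene 19942, chromosome 11, start 101442245), and its mean height was 50.5 in the IL-2 library and 4.5 in the control library (log2 ratio 2.55). The region 283 bp inside Rpl27 had 14 in the IL-2 library and 4 in the control library. The region 6203 bp from its start had 87 in the IL-2 library and 5 in the control library, and it lay 36 bp after the start of Ifi35. The largest ratio among cytosolic genes was thus carried by a region at a neighbour.

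Rpl13a (chromosome 7) likewise had its highest region at a neighbour. Rpl13a, of the large subunit and known outside the ribosome for translational control in cells given interferon-gamma, had 29.25 in the IL-2 library and 5.25 in the control library over 4 regions (log2 ratio 1.74). Its highest region, with 75 in the IL-2 library and 5 in the control library, lay 7575 bp upstream, 112 bp inside Flt3l, a growth factor gene of the haematopoietic system. Of the other 3 regions, whose single heights were not determined, 1 lay 407 bp upstream of Rpl13a, 1 lay 7 bp from the start of Snord32a, a snoRNA, and 1 lay 1101 bp upstream of Mir150.

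Rpl28, of the large subunit (chromosome 7), also had a weak and a strong region. The region 477 bp upstream had 14 in the IL-2 library and 4 in the control library, and the one 3179 bp from the start, downstream of the gene, had 63 in the IL-2 library and 4 in the control library. Its own start was the nearest listed start for both, and its log2 ratio was 2.27. Among cytosolic members this was the highest determined region with its own start nearest.

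The remaining cytosolic genes with a region within 1 kb of their own start had IL-2 heights from 11 to 49. Rps3, a small-subunit protein that lies near the entry of the messenger RNA (gene 27050, chromosome 7), had 49 in the IL-2 library and 6 in the control library at a region 125 bp inside the gene (log2 ratio 2.30). This was the highest cytosolic region at its own start, and the start of Snord15a lay 652 bp away. Rps15, of the small subunit, had 29 in the IL-2 library and 4 in the control library at 97 bp (log2 ratio 1.92). Rpl4, which lines the exit tunnel of the large subunit, had 28 in the IL-2 library and 4 in the control library at 373 bp (log2 ratio 1.87), with the start of Zwilch, on the opposite strand, 829 bp away. These 3, and Rps7 with 18 in the IL-2 library and 4 in the control library at 161 bp, stood above the median of all listed genes' regions of this kind, which was 16. Rpl5, which with Rpl11 and 5S RNA forms a complex that can bind the p53 regulator Mdm2, had 14 in the IL-2 library and 3 in the control library at 144 bp. Rpl7l1 (15 in the IL-2 library, 3 in the control library) and Rpl21 (14 and 5) were also low. Rpl9, with 11 in the IL-2 library and 5 in the control library, had the lowest log2 ratio of the cytosolic genes, 0.68, at a region 423 bp inside the gene and 489 bp upstream of Lias, on the opposite strand.

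Members with 2 regions whose heights could not be told apart are given by both heights. Rpl11 had 41 and 16 in the IL-2 library and a mean of 4.5 in the control library (log2 ratio 1.82). Its regions lay 123 bp inside the gene and 6853 bp upstream, and which of them held 41 is not determined. Rps15a had 20 and 16 in the IL-2 library and a mean of 5 in the control library (log2 ratio 1.20), at 2387 bp inside and 3213 bp upstream. Rps26, of the small subunit near the exit of the messenger RNA, had 19 and 14 in the IL-2 library and a mean of 5 in the control library (log2 ratio 1.10). Its regions were 454 bp and 10726 bp upstream, the second of them 8761 bp inside Ikzf4. Rpl24, which takes part in a bridge between the subunits, had 23 and 10 in the IL-2 library and a mean of 5 in the control library (log2 ratio 1.10). One Rpl24 region lay 1443 bp upstream, and the other 141 bp inside Zbtb11. All 4 genes had a ratio of at least 2, as did 83.8% of all listed genes.

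Several cytosolic members were listed through a region at another gene. Rpl37 had 35 in the IL-2 library and 4 in the control library (log2 ratio 2.15) at a region 8325 bp upstream that lay 245 bp inside Card6, which encodes a protein with a caspase recruitment domain. Rpl23a, at the exit tunnel of the large subunit, had 44 in the IL-2 library and 8 in the control library (log2 ratio 1.91) at a region 550 bp upstream of Nek8. Rpl35a-ps7 had 43 in the IL-2 library and 8 in the control library (log2 ratio 1.88), 904 bp inside Pdia4, which encodes a protein disulfide isomerase. These 3 had IL-2 heights above the median of all genes, and of the next ones only Rpl36 did. Rpl36 (23 in the IL-2 library, 6 in the control library, log2 ratio 1.35) had its region 27 bp inside 2410015M20Rik, the gene now named Micos13. Rps19bp1 (12 in the IL-2 library, 4 in the control library, log2 ratio 0.92) had its region 544 bp inside Atf4, a transcription factor of the amino acid response. Rps27a, which encodes a small-subunit protein fused to ubiquitin, had 13 in the IL-2 library and 4 in the control library at 72 bp from its start and 18 bp from that of 1700034F02Rik, on the opposite strand. The ratios of Rps27a, Rps12l2 and Rpl31-ps10 were exactly 2, and thus counted, while Rpl21, Rps19bp1 and Rpl9 were among those below it.

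The pseudogenes other than Rpl35a-ps7 had low heights at regions beyond 1 kb from their starts. Rpl31-ps20 had 16 in the IL-2 library and 4 in the control library at 2548 bp, Rpl31-ps10 had 15 and 5 at 7043 bp upstream, and Rps12l2 had 13 and 4 at 3015 bp. Their own start was the nearest listed start. Without pseudogenes and paralogous copies the median log2 ratio of the cytosolic members was 1.35 over 21 genes.

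Among mitochondrial genes, Mrpl30 had the highest values. It encodes a large-subunit protein (gene 107734, chromosome 1, start 37890553), and its region had 116 in the IL-2 library and 5 in the control library (log2 ratio 3.60). The region lay 313 bp upstream of the start in the table and 237 bp upstream of the RefSeq start. It also lay 171 bp inside Mitd1, which acts in the last step of cell division and starts on the opposite strand, so it cannot be given to either gene. Its promoter, printed above, was the only one with TTCNNNGAA among the 13 mitochondrial members with a RefSeq window.

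Mrps34, Mrpl4 and Mrps35 were listed through a region at another gene. Mrps34, of the small subunit, had 59 in the IL-2 library and 5 in the control library (log2 ratio 2.68) at a region 8944 bp upstream. That region lay 174 bp inside Nubp2, which encodes a factor of iron-sulfur protein assembly, and 498 bp upstream of Spsb3. Mrpl4, of the large subunit, had 56 in the IL-2 library and 7 in the control library (log2 ratio 2.35) at a region 13167 bp from its start, 56 bp upstream of the Icam1 start in the table. Mrps35, of the small subunit, had 23 in the IL-2 library and 8 in the control library (log2 ratio 1.11), 10402 bp upstream of its start and 169 bp upstream of Rep15. All 3 regions were more than 5 kb from the ribosomal gene's start.

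Of the 5 mitochondrial members whose own start was the nearest to a region within 1 kb, Mrpl22 and Mrpl11 had the highest IL-2 heights. Mrpl22, of the large subunit (gene 216767, chromosome 11), had 52 in the IL-2 library and 7 in the control library at a region 122 bp inside the gene. Its mean over 3 regions was 45 in the IL-2 library and 5.67 in the control library (log2 ratio 2.23), and its Peak Value of 53 was at 1 of the other 2 regions, which lay 3939 bp and 67 bp upstream of Gm12250. Mrpl11, of the large subunit (gene 66419, chromosome 19), had 36 in the IL-2 library and 4 in the control library at its only region, 354 bp upstream, which no other listed gene shared (log2 ratio 2.19). The other 3 with a region at their own start were low. Mrps17 had 15 in the IL-2 library and 7 in the control library at 152 bp (log2 ratio 0.74), Mrpl52 had 14 and 3 at 35 bp (1.25), and Mrpl16 had 12 and 6 at 129 bp (0.63), the last being the lowest log2 ratio of either ribosome. Mrps17 and Mrpl16 were the mitochondrial members with a ratio under 2.

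Of the mitochondrial members, 4 shared a start region with a gene on the opposite strand. These were Mrpl30, Mrpl32, Mrpl48 and Mrpl18, and by the starts in the table the partner's start was nearer than the member's for all 4. Mrpl32 had 19 in the IL-2 library and 4 in the control library at 291 bp upstream, 86 bp inside the proteasome gene Psma2. Mrpl48 had 19 in the IL-2 library and 6 in the control library at 380 bp, 30 bp inside Rab6a, which encodes a GTPase of Golgi transport. By RefSeq starts the Mrpl48 region lay 6 bp inside Mrpl48 and 30 bp inside Rab6a, so the member's own start was nearer there. Mrpl18, which can import 5S RNA in human mitochondria, had 12 in the IL-2 library and 3 in the control library at 597 bp upstream, 223 bp inside Tcp1, a subunit of the cytosolic chaperonin. Apart from Mrpl30 these were at or below 19 in the IL-2 library. Among cytosolic members 4 pairs had both starts within 1 kb, counted without regard to strand, those of Rps3, Rpl4, Rpl9 and Rps27a. The other start was on the opposite strand for Rpl4, Rpl9 and Rps27a, and for Rps3 it was that of the snoRNA gene Snord15a. It was nearer than the member's start only for Rps27a.

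The last 4 mitochondrial members had no region within 1 kb of their start. Mrps16, of the small subunit, had 27 in the IL-2 library and 4 in the control library (log2 ratio 1.83) at 1187 bp inside the gene, where it was the nearest listed start. Mrpl1 had 29 and 14 in the IL-2 library and a mean of 5 in the control library (log2 ratio 1.41), at 4195 and 9571 bp upstream in an order not determined. Mrpl49 had 15 in the IL-2 library and 3 in the control library, 288 bp inside Syvn1, a ubiquitin ligase of the endoplasmic reticulum. Mrpl41 had 14 in the IL-2 library and 4 in the control library, 458 bp inside Wdr85, named Dph7 in RefSeq. Mrps16 alone of these 4 stood above the median of the table in both its IL-2 height and its log2 ratio.

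**Figure D4:**
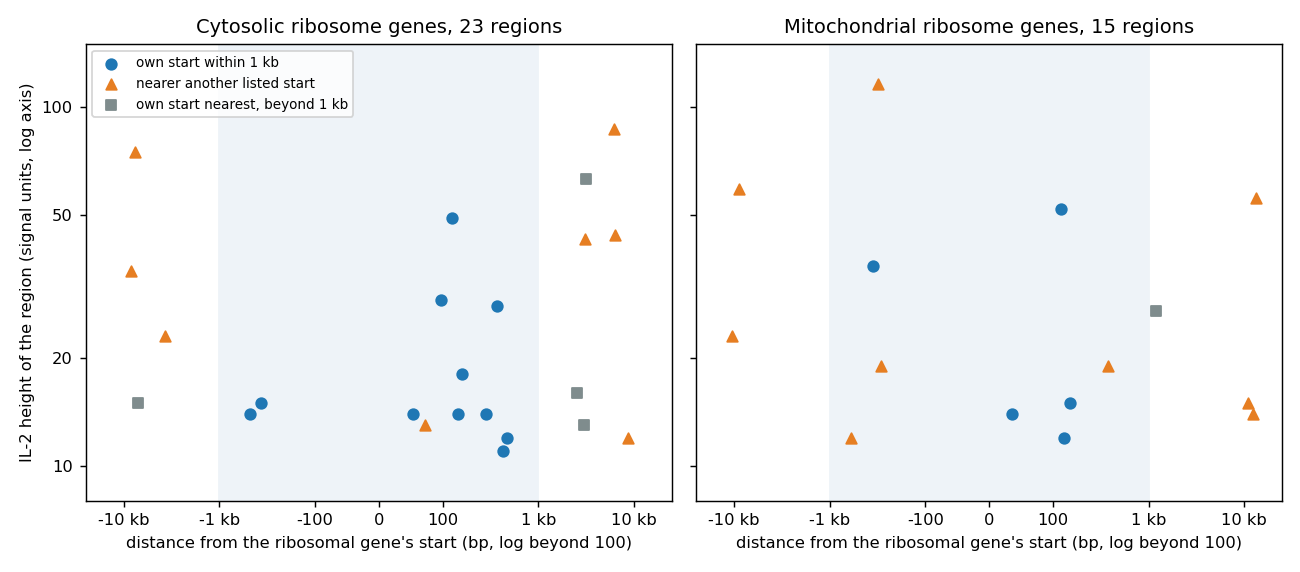
Distance of each region with a determined height from the ribosomal gene's start (x axis, bp, negative upstream, linear within 100 bp and logarithmic beyond; the band marks 1 kb) against its IL-2 height (signal units, log axis), for 23 cytosolic and 15 mitochondrial regions, with symbols for the nearest listed start. Of the 4 highest regions, those at Rpl13a (75), Rpl27 (87) and Mrpl30 (116) are nearer to another start, and the one at Rpl28 (63) is not.

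A region was shared with a listed snoRNA gene by 6 of 26 cytosolic members and 1 of 16 mitochondrial members. Rps3, Rpl4, Rpl13a, Rpl23a and Rpl37 were among the cytosolic ones, and the mitochondrial one was Mrpl18. A shared region describes the neighbourhood of the genes, and which gene it belongs to was not tested.

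By subunit, the median IL-2 height was 25.5 for 16 Rpl genes, 15.25 for 10 Rps genes, 19 for 12 Mrpl genes and 25 for 4 Mrps genes. The ratio was at least 2 for 14 of 16 Rpl, 7 of 10 Rps, 11 of 12 Mrpl and 3 of 4 Mrps genes, against 83.8% of all listed genes. Median log2 ratios were 1.54, 1.05, 1.36 and 1.47 in the same order. Their ranges overlapped, and no test was run.

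Other genes of translation were listed in shares from 0% to 45%, against 19.1% of all protein-coding genes, and no difference between lists was tested. Ribosomal proteins with other names were listed for 2 of 7 cytosolic genes, among them Gnb2l1 (15 in the IL-2 library, 4 in the control library), also called Rack1, and for 2 of 6 mitochondrial genes, Gadd45gip1 (36 and 6) and Dap3 (25 and 7). The Dap3 region lay 36090 bp from its start and 242 bp from that of Msto1. That of Gadd45gip1 lay 5530 bp upstream of its start and 5513 bp from that of Dand5. All 4 listed ribosomal proteins with other names had a ratio of at least 2, which 83.8% of all listed genes reached. Of 44 ribosome biogenesis genes 11 were listed, 10 with a ratio of at least 2, near that share. Their median log2 ratio was 1.39, against 1.42 for all listed genes. Riok1, a kinase of small-subunit maturation, had 60 in the IL-2 library and 3 in the control library, 13139 bp from its start. Nop58, a core protein of snoRNA particles, had 35 and 4 at 34 bp, and Rrp12 had 37 and 5 at 21689 bp. Biogenesis genes thus had values in the range of the ribosomal genes. Of 11 elongation and termination genes 4 were listed, all with a ratio of at least 2, led by Eif5a with 67.7 in the IL-2 library and 6 in the control library over 3 regions and a Peak Value of 180. Tpt1 had 40 and 5, with its nearest region 360 bp upstream and 68 bp from the start of Gm4285. Eef1g had 35 and 4 at a region nearer to Ahnak.

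Initiation factors had the lowest median log2 ratio of these lists. Of 37 genes 9 were listed and 2 had a ratio of at least 2, with a median log2 ratio of 0.77, against 1.42 for all listed genes and 83.8% of them called. Pabpc1, the poly(A)-binding protein, had 20 in the IL-2 library and 4 in the control library, Eif4a2, an RNA helicase, 19 and 6, and Eif2s2, a subunit of the factor that brings the initiator tRNA, 10 and 3. Of 20 cytosolic tRNA synthetase genes 9 were listed, 7 with a ratio of at least 2 (median log2 ratio 1.34), led by Tars (58 in the IL-2 library, 3 in the control library, 182 bp upstream), Wars (42 and 7) and Dars (29.7 and 4.33). Of 27 mitochondrial translation factor and synthetase genes 9 were listed, 8 with a ratio of at least 2 (median log2 ratio 1.26), led by Wars2 (63 in the IL-2 library, 4 in the control library), Mtrf1 (51 and 4.5) and Tsfm (16 and 3). The nearest region of Mtrf1 lay 4204 bp upstream of its start and 2900 bp from that of Naa16. Of the 10 S6 kinase genes 0 were in the table.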

How the data were processed

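The authors deposited 1 table of genes near STAT5 regions, with the mean peak height of each library per gene (a signal that is never negative), the highest peak as a signal over both libraries, and each region's distance to the gene start. Per the submitters' processing notes, BWA and mm10 were used; the peak caller, depth and scaling were not stated. Region names show calling per library. No column held other samples (0 columns).

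Ratios were computed with a pseudocount of 5 and counted at 2 or more, with numpy 2.4.6, pandas 2.3.3 and scipy 1.17.1 in Python 3.11.15. Heights of single regions were solved from gene means, which was tested on simulated data. Gene identifiers of 4799 of 4934 genes, and of all 42 members, matched RefSeq GRCm38.p6, the source of promoter sequences. Members were named by a rule that took the 8 largest and 4 smallest log2 ratios per ribosome, Peak Values from the 90th percentile up, several regions, or a nearer listed start, and 3 members per other list. The other lists were 8. The remaining members were added, apart from some genes that are not reported here. Members and lists were chosen with earlier results of these data known.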

Additional observations from a re-analysis of the deposited data

How the results depend on the processing

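No paired analysis was possible because IL-2 and control were single libraries, and no library could be left out. The count with a ratio of at least 2, 21 cytosolic and 14 mitochondrial members, became 12 and 8 with a pseudocount of 10, 1 and 2 when the medians of the libraries were set equal, and 4 and 5 with a size rule of 4. With only members whose own start was nearest for at least 1 region, the mitochondrial count was 5 of 7, fewer genes by construction. In the order cytosolic and mitochondrial, the median log2 ratio became 1.84 and 1.95 with a pseudocount of 1, 0.92 and 1.00 with 10, 0.02 and 0.11 with equal medians, 1.34 and 1.37 with Peak Value as the IL-2 value, and 1.25 and 1.41 with own-start members only. Without pseudogenes and copies the cytosolic median was 1.35 and its median Peak Value 23. With own-start members only the median Peak Value was 19 for cytosolic and 27 for mitochondrial members. The cytosolic share of regions within 5 kb was 73%, a wider distance by construction. The remaining 22 values stayed within 1.5 times the count, within the Wilson interval of the share or at the same median, and no median log2 ratio of either ribosome changed sign, although single members had a ratio below 1 with equal medians. Leaving out regions whose nearer start was a snoRNA or miRNA gene, chosen after seeing the data, gave 33.3% of cytosolic regions nearer to another start. The depth is unknown, so the counting error of a height cannot be given.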
